A study of Rattus norvegicus with 28 samples.

Results

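Gene expression was compared between INS-1 cells carrying the Med14_S983A mutation after 16 h of exposure to the adenylyl cyclase activator forskolin (FSK, 10 µM) and the same mutant cells without treatment (CON). INS-1 is a rat insulinoma line that serves as a model of the pancreatic beta cell, and S983A denotes the replacement of a serine by alanine in Med14, which belongs to the Mediator complex. The comparison rests on 4 of the 28 libraries in the series, 2 per group, chosen as the columns named for these groups in the deposited table of transcript abundances (TPM, reads scaled for transcript length and library size). For each gene symbol the transcript with the highest mean TPM over all 28 libraries was kept and the ERCC spike-in rows were dropped. That left 17455 symbols, of which 10275 had a mean of at least 1 TPM and were tested. The question addressed by this arm is how cells whose Med14 lacks this serine respond when the cAMP pathway is held active for most of a day.

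FSK binds adenylyl cyclases directly and raises cAMP without engaging a receptor. The cAMP frees the catalytic subunits of protein kinase A (PKA), which phosphorylate CREB; CREB then works with CRTC coactivators and the acetylases CBP and p300 at promoters and enhancers that carry cAMP response elements (CREs). Mediator bridges such enhancer-bound factors and RNA polymerase II, and Med14 is its scaffold subunit. In beta cells, cAMP amplifies glucose-stimulated insulin release and is the signal used by the incretin hormones GLP-1 and GIP.

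All groups used below were INS-1 cells grown in RPMI-1640 with serum and moved to serum-free medium before any agent was added. They are S983A CON, S983A with FSK for 1, 8 or 16 h, S983A with the GLP-1 receptor agonist exendin-4 (Ex-4, 10 nM) for 16 h, WT CON, and WT with FSK for 16 h, with 2 libraries each. The mutation was introduced with Cas9 and a repair template, followed by puromycin selection and sorting of single cells, so that a mutant line descends from 1 cell. The study's methods speak of independently generated mutant lines in its experiments. The labels do not tie a line to a library, so the S983A libraries may come from the same line or from different ones. They also name no vehicle in CON, and do not say how long CON cells stayed without serum. Nor do they state that the 2 libraries of a group came from separate cultures. The p-values therefore measure the spread between these libraries, which may be technical, and a difference between WT and S983A cells cannot be told apart from a difference between the lines used. In bulk RNA, more expressing cells and more RNA per cell cannot be told apart either.

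Depth, recovered from the TPM values with the help of the deposited spike-in counts, ranged from 42551133 to 92635979 fragments over the 28 libraries and from 46397570 to 53755735 over the 4 compared here. Spike-ins took 0.836 and 0.818% of the fragments in CON and 0.715 and 0.671% with FSK. The beta cell identity on the label was checked against defining markers. Of 8 beta cell markers, 6 were in the table and all of these exceeded 1 TPM, with a summed level of 75840 and 84368 TPM in CON and 51206 and 52002 TPM with FSK, led by Ins1. Markers of delta, PP and endothelial cells summed to at most 0.109 TPM in any of the 4 libraries. Duct, fibroblast and immune markers summed to between 0.633 and 3.1 TPM. A set of acinar cell markers was also listed and is not reported here, so the check is not complete. Alpha cell markers summed to 32.5 and 34.9 TPM in CON and to 114 and 102 TPM with FSK, with 2 of 6 markers at 1 TPM or more. The alpha cell sum rose through Gcg, and its part in other results was not tested.

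No difference in Med14 itself was detected between the groups. It measured 19.6 and 20.3 TPM in CON and 19.6 and 21.2 TPM with FSK, and the log2 difference was 0.03 ± 0.07 (± SE, adjusted p = 0.685 by limma with Benjamini-Hochberg adjustment over all 10275 genes). The substitution is a change of sequence, which a transcript level cannot check.

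FSK for 16 h reshaped a large share of the transcriptome of the mutant cells. A gene was called when its adjusted p was under 0.05 and its fold change above 1.5 on the log2(TPM + 1) scale, which understates the change of genes near 1 TPM. By this rule 1255 genes rose, 12.2% of those tested, and 2168 fell, 21.1%. At least 2-fold changes were seen for 516 of the higher and 962 of the lower genes, and at least 4-fold changes for 118 and 145. The FSK and CON libraries did not overlap for any of the 1255 higher genes nor for 2167 of the 2168 lower genes, but with 2 libraries per group the same held for 88.2% of all tested genes. The median log2 difference over all genes was -0.10 on the deposited TPM scale. It became 0.05 after centring each library on its median and 0.12 after scaling to the spike-ins, and the split of calls moved with it, to 1755 higher and 1616 lower and to 2101 higher and 1419 lower.

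Ifi27l2b, an interferon-inducible family member, stood at 3.78 and 5.45 TPM in CON and 471 and 502 TPM with FSK, a 106-fold rise by group means and a log2 difference of 6.46 ± 0.14 (adjusted p = 9.89e-23, limma). Fst, whose product follistatin binds activins, went from 1.17 and 0.956 to 96.6 and 89.5 TPM (log2 difference 5.51 ± 0.09). Tac1, the precursor of substance P, went from 8.52 and 7.76 to 349 and 361 TPM (5.29 ± 0.09). In each of these genes both treated libraries lay far above both controls and the treated libraries were close to each other.

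Several strongly raised genes code for receptors and guidance molecules at the cell surface. The Ephrin receptor genes Epha2 and Ephb3 rose from 0.918 and 0.973 to 41.1 and 39.3 TPM and from 1.67 and 2.18 to 52.3 and 48.9 TPM. Sema3a, a secreted axon guidance cue, rose from 1.0 and 0.979 to 38.1 and 36.5 TPM. Oxtr, the oxytocin receptor, was below 1 TPM before treatment (0.505 and 0.474) and at 20.4 and 19.7 TPM after it. Fxyd5, a small membrane protein that associates with the sodium pump, went from 0.089 and 0.156 to 37 and 35.2 TPM. In all, 27 genes were under 1 TPM in both CON libraries and at 5 TPM or more in both FSK libraries.

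At the other end, Baiap3, a protein of dense-core vesicle traffic, fell from 132 and 137 TPM to 6.3 and 6.12 TPM, a 21.7-fold drop (log2 difference -4.23 ± 0.09, adjusted p = 7.46e-23, limma). The row of the microRNA gene Mir3547 fell in parallel (from 36.6 and 33.5 to 0.891 and 1.02 TPM), but in rn6 it lies at chr10:14603134-14603243, within Baiap3 at chr10:14601133-14613881 on the same strand, so its reads cannot be told apart from those of the host transcript. Scgn, which encodes the calcium sensor secretagogin, fell from 1294 and 1125 to 96.5 and 99.2 TPM. Wif1, a secreted WNT inhibitor, fell from 360.1 and 351 to 23.9 and 26.5 TPM. Enpp2, the source of the lysophospholipase D autotaxin, fell from 157 and 147 to 9.02 and 8.51 TPM. The transcript of the calmodulin-binding protein neurogranin, Nrgn, fell from 65.4 and 74.6 to 4.17 and 4.25 TPM. Oas1f, an oligoadenylate synthetase family gene, fell from 52.6 and 52.9 to 2.47 and 2.55 TPM, so that genes of interferon-type families stood at both ends of the ranking. Oas1f and Ifi27l2b have similar copies in the genome, between which the counting could have divided reads.

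A set of 17 genes went the opposite way, from 5 TPM or more in both controls to under 1 TPM in both treated libraries. Among them Rph3a, an effector of Rab3 in exocytosis, went from 19.7 and 18.7 to 0.489 and 0.364 TPM. The ligand gene Efnb3 went from 15.8 and 16.7 to 0.73 and 0.786 TPM while the Ephrin receptors named above rose.

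**Figure D1:**
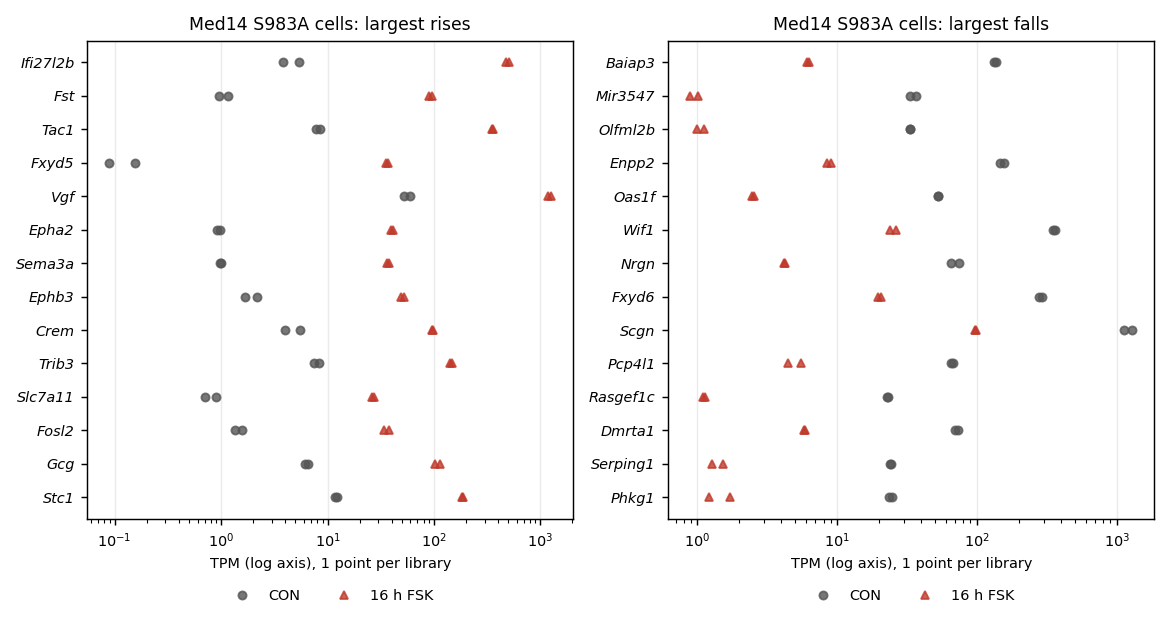
TPM on a log axis for the genes with the largest rises and falls, 1 point per library in S983A CON and S983A 16 h FSK. The 2 points of a group lie close together for each gene and the groups do not overlap, with Ifi27l2b at 3.78 and 5.45 TPM in CON and 471 and 502 TPM with FSK.

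Gene groups were described through 36 lists with 903 entries, of which 799 were tested, 74 lay under the filter and 30 were not found in the table by symbol. Counts below are over tested members, and a member that passed the filter only through groups where it is high had to differ.

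Early cAMP-responsive factors were still raised at 16 h, in part far below their level at 1 h. Of 10 genes for AP-1 and related basic leucine zipper factors, 8 were higher and none lower, with a median log2 difference of 2.03 against -0.10 for all genes tested. Fosl2 measured 1.36 and 1.57 TPM in CON and 37.9 and 33.8 TPM at 16 h (log2 difference 3.90 ± 0.08), after 466 and 557 TPM at 1 h and 65.6 and 63.9 TPM at 8 h. Junb followed the same course, at 10.2 and 11.7 TPM in CON, 1094 and 1039 at 1 h, 86.3 and 83.2 at 8 h and 56.2 and 51.6 at 16 h. Fos rose from 0.993 and 0.958 to 10.6 and 9.59 TPM. Atf3, a stress-responsive member of the family, had another profile, with 43.5 and 43.9 TPM at 1 h, 33.2 and 36.6 at 8 h and 48.4 and 50.1 at 16 h, so that it was lower at 8 h than at 1 h and higher again at 16 h. Jund, the most abundant member, stood at 115 and 132 TPM in CON and 149.9 and 155 TPM with FSK and was not called (log2 difference 0.31 ± 0.08).

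Among 12 tested genes of the NR4A, EGR and other early families, 7 were higher and 2, Klf10 and Ier5, lower (median 0.90). Nr4a1, an orphan nuclear receptor, had 6.53 and 7.36 TPM in CON, 1440.0 and 1363 at 1 h and 37.2 and 33.7 at 16 h. Myc went the other way in time. It measured 55.5 and 56.5 TPM in CON, 5.26 and 5.6 at 1 h, 76.9 and 75.2 at 8 h and 146 and 148 at 16 h, and the late rise was 1.38 ± 0.05 on the log2 scale. Klf10 was lower at 16 h (38.1 and 37.5 TPM in CON, 17.2 and 16.9 TPM with FSK), and Btg2, an antiproliferative early gene at 1096 and 1037 TPM at 1 h, was back at 56 and 57.1 TPM, below its 82.8 and 85.5 TPM in CON but within the fold limit.

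Among genes that restrain cAMP signalling, 11 of 21 tested were higher at 16 h and 4, Pkig, Dusp10, Grk3 and Rgs16, lower, with a median log2 difference from CON of 0.78 (0.08 after 1 h and 0.95 after 8 h). Crem, whose short products repress CREs, went from 5.48 and 3.97 to 95 and 97.9 TPM (log2 difference 4.10 ± 0.08, adjusted p = 1.57e-23, limma). Sik1, a kinase that holds CRTC in the cytoplasm, went from 1.71 and 1.27 to 23.4 and 20.4 TPM, the phosphodiesterase gene Pde4b from 3.49 and 3.4 to 18.1 and 17.4 TPM, and the phosphatase gene Dusp4 from 3.32 and 3.44 to 28.5 and 28.7 TPM. Rgs2, which limits G protein signalling, was at 37.8 and 35.2 TPM after 748 and 812 TPM at 1 h. Pkig, a PKA inhibitor, fell from 63.3 and 69.5 to 35.6 and 34.9 TPM.

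In the list of incretin receptors, adenylyl cyclases and PKA subunits, 8 of 18 tested genes were lower and 2, Prkar1b and the anchoring protein gene Akap1, higher (median -0.38). The GIP receptor gene Gipr fell from 101 and 97.7 to 36.1 and 36.3 TPM, the glucagon receptor gene Gcgr from 36.1 and 34.8 to 17.7 and 19 TPM, and the cyclase gene Adcy5 from 9.29 and 9.31 to 3.65 and 3.88 TPM. Prkacb, 1 of the PKA catalytic subunits, fell from 91.7 and 87.1 to 25.7 and 25.8 TPM, and the cAMP-binding exchange factor gene Rapgef4 from 10.3 and 10.5 to 3.58 and 3.59 TPM. The regulatory subunit gene Prkar1b rose from 152 and 158 to 244 and 235 TPM. Gnas, which encodes the stimulatory G protein alpha subunit, was not called (2693 and 2977 against 2678 and 2639.6 TPM).

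Of 11 genes for CREB family members and coactivators, 3 were higher and 1 lower. Over all genes tested, 12.2% were called higher and 21.1% lower. Ppargc1a, a coactivator of mitochondrial genes and a classical CREB target, rose from 1.89 and 2.27 to 23.5 and 24.7 TPM (log2 difference 3.03 ± 0.17). Creb3l1 and Creb3, membrane-bound factors of the secretory pathway, rose from 21 and 23.1 to 80.9 and 77.8 TPM and from 109 and 99.4 to 225 and 220.1 TPM. Crtc1 fell from 32.4 and 36.1 to 19.5 and 18.6 TPM. The median of the list was -0.08, close to that of all genes, and turned positive with spike-in scaling.

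Promoter sequences were read for the tested genes that had a RefSeq entry of the GRCr8 assembly, 250 bases before to 50 bases after the annotated start. The full CRE, TGACGTCA on either strand, was found in 37 of 1006 higher genes with a window (3.68%), 44 of 1689 lower genes (2.61%) and 194 of 5506 genes not called (3.52%), and in 1.91% of all 27457 promoters of the table. The shorter TGACG or its complement CGTCA, which every full site contains, was found in 34.8, 27.5 and 35.3% of the same sets and in 22% of all promoters. The shares in higher and uncalled genes were thus close to each other, and a match describes letters only. Among the 15 largest rises, 10 had a window and 2 of these, Vgf and Epha2, held a full site. None of the 11 windows of the 15 largest falls did. The promoters of 4 genes with contrasting changes are shown, with full or short CRE letters in capitals: those of the granin genes Vgf and Scg2, which both hold a full site (90 and 123 bases before the start) and changed in opposite directions, and those of the insulin genes Ins1 and Ins2, of which only Ins2 fell.
Vgf (GRCr8 chr12:25276971-25277270, minus strand): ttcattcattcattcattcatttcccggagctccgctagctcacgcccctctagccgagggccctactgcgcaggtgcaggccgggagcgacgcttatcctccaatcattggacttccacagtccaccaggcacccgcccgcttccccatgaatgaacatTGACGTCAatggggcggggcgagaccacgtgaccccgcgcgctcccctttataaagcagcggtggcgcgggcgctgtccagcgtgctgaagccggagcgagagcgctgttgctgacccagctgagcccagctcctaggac
Scg2 (GRCr8 chr9:88256817-88257116, minus strand): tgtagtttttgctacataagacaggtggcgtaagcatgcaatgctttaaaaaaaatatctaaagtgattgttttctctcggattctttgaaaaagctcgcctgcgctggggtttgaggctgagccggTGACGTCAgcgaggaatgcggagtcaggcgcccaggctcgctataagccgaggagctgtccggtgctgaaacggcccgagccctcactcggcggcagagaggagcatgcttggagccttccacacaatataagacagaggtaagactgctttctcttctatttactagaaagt
Ins1 (GRCr8 chr1:261185869-261186168, plus strand): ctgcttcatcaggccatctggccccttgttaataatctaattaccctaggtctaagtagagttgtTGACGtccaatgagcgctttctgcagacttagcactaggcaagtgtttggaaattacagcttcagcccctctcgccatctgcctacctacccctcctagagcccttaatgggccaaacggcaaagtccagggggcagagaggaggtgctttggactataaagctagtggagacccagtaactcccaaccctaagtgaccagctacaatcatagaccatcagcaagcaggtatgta
Ins2 (GRCr8 chr1:207273756-207274055, minus strand): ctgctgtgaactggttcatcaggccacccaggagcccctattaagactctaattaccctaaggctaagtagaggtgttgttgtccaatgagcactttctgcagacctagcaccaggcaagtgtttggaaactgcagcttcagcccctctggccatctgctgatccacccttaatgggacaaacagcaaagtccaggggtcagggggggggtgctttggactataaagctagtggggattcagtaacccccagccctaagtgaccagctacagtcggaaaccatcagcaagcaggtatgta

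The granins, acidic proteins packed with hormones into dense-core granules, split into 3 higher and 3 lower genes of 7. Vgf rose from 51.9 and 59.4 TPM in CON to 1267 and 1192 TPM with FSK, 22.1-fold by group means (log2 difference 4.44 ± 0.07, adjusted p = 7.73e-26, limma). Scg2 fell from 1378 and 1335 to 134 and 139 TPM, 9.96-fold (-3.31 ± 0.04, adjusted p = 3.46e-28). Chga, the most abundant granin in CON, fell from 4771 and 5135 to 1895 and 1786 TPM, and Scg5, the chaperone of the convertase PC2, from 480.2 and 466 to 189 and 193 TPM. Scg3 rose from 438 and 418 to 832 and 804 TPM and Resp18 from 854 and 908 to 1597 and 1525 TPM.

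Of 21 genes for other peptide hormones and neuropeptides, 13 were under the filter and 8 were tested. Of these 8, 6 were higher and none lower, with a median log2 difference of 2.30, but members such as Calca passed the filter through treated groups, so that the count favours members that rise. Beside Tac1, Cck (cholecystokinin) went from 33.1 and 38.5 to 412 and 429.6 TPM, Gcg (proglucagon) from 6.09 and 6.56 to 113 and 101 TPM, Gast (gastrin) from 7.37 and 8.15 to 60.6 and 60.2 TPM and Calca (calcitonin) from 0.69 and 0.689 to 4.41 and 5.24 TPM. Gcg is at the same time the leading marker of alpha cells. Stc1, a glycoprotein hormone outside the list, rose from 12.4 and 11.8 to 189 and 182 TPM.

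The 2 rat insulin genes parted. Ins1 stood at 38834 and 42395 TPM in CON and 41155 and 41811 TPM with FSK (log2 difference 0.03 ± 0.05, adjusted p = 0.604, limma), so the groups overlapped. Ins2 stood at 32620.4 and 37516 and 6719 and 6724 TPM and fell by 5.22-fold (-2.38 ± 0.06, adjusted p = 5.42e-22). The genes are near-identical copies, and reads that fit both could have been split between them by the counting, so the division between Ins1 and Ins2 is uncertain. Their joint share of all transcripts was 7.15 and 7.99% in CON and 4.79 and 4.85% with FSK.

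Further genes of proinsulin processing and granule content were lower. In this list 5 of 9 tested genes fell and 1 rose (median -0.82). Pcsk1, the convertase that makes the first cuts in proinsulin, fell from 173 and 152 to 27.7 and 26.9 TPM (log2 difference -2.53 ± 0.06). The granule zinc transporter gene Slc30a8 fell from 817 and 749.9 to 154 and 158 TPM (-2.32 ± 0.05). Ero1b, an oxidase for proinsulin folding, fell from 81.1 and 71.8 to 39 and 38.9 TPM. Pam, the enzyme that amidates peptide hormones, was the exception and rose from 554 and 519 to 2385 and 2379 TPM (2.15 ± 0.05). Iapp, the amyloid polypeptide secreted with insulin, was at 3213 and 3328 and 3048 and 3184 TPM and was not called (-0.07 ± 0.04).

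Transcription factors that define beta cells were mostly lower. Of 17 tested 13 fell and 1 (Foxa1, a pioneer factor, from 2.35 and 2.88 to 4.95 and 5.9 TPM) rose, and the median log2 difference was -1.26. Pdx1, the master factor of the insulin promoter, had 324 and 342 TPM in CON and 118 and 111 TPM with FSK (-1.53 ± 0.04). Neurod1 went from 215 and 221 to 29.6 and 29.9 TPM (-2.83 ± 0.05), Rfx6 from 152 and 144 to 21.6 and 23.3 TPM, Nkx2-2 from 99.5 and 107 to 22.9 and 22.2 TPM and Mnx1 from 78.6 and 77.5 to 16 and 15.2 TPM. Pax6, the most abundant of the list, went from 518 and 518 to 256 and 254 TPM (-1.02 ± 0.03). The zinc finger gene St18 was within the fold limit (146 and 134 against 120 and 119 TPM). For each of these factors other than Foxa1 both treated libraries lay below both controls.

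**Figure D2:**
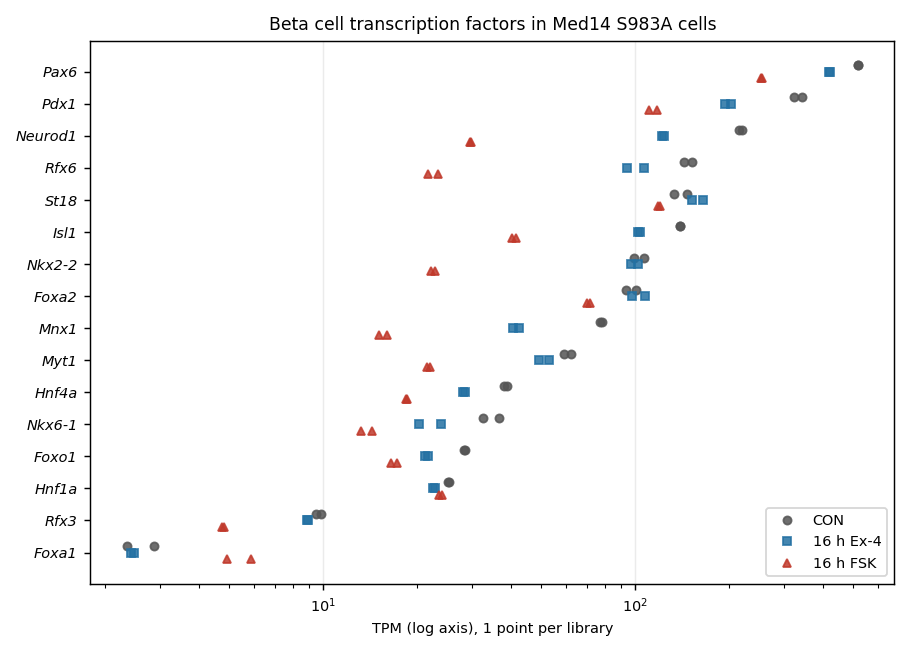
TPM (log axis) of 16 of the 17 tested beta cell transcription factors in S983A cells, 1 point per library for CON, 16 h Ex-4 and 16 h FSK. The FSK points lie left of the CON points for every factor shown other than Foxa1, and Neurod1 falls from 215 and 221 to 29.6 and 29.9 TPM.

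Ion channels that couple glucose metabolism to calcium entry followed the transcription factors, with 13 of 23 genes lower and 1 higher (median -1.01). Kcnj11, the pore of the KATP channel, fell from 115 and 122 to 68.8 and 63.5 TPM. The calcium channel genes Cacna1a and Cacnb3 fell from 12.7 and 13.1 to 3.12 and 2.91 TPM and from 330.4 and 342 to 147 and 146 TPM. The potassium channel genes Kcnb2 and Kcnh6 fell from 9.04 and 8.4 to 1.15 and 0.963 TPM and from 48.3 and 51.6 to 16.3 and 17.2 TPM. Kcnma1, the BK channel, was the 1 gene to rise (3.91 and 4.05 to 11.5 and 11.8 TPM). The background potassium channel gene Kcnk16 was not called (144 and 149.7 against 136 and 130.1 TPM).

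Exocytosis genes were mixed, with 5 higher and 12 lower of 33, beside 12.2% of all genes called higher and 21.1% called lower. The median of the list was -0.09 and turned positive with spike-in scaling. Rab3b, a granule GTPase, fell from 142 and 147 to 14.8 and 18 TPM and its effector gene Rph3al from 121 and 129.6 to 18.8 and 19.7 TPM. Within the synaptotagmins, a family that includes calcium sensors of fusion, Syt4 rose from 38.9 and 33.3 to 191 and 194 TPM and Syt5 from 98.7 and 103 to 348 and 335 TPM. Syt13 fell from 78.5 and 77.5 to 22 and 23.9 TPM. Ptprn, a granule membrane protein, rose from 361 and 378 to 839 and 814 TPM.

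**Figure D3:**
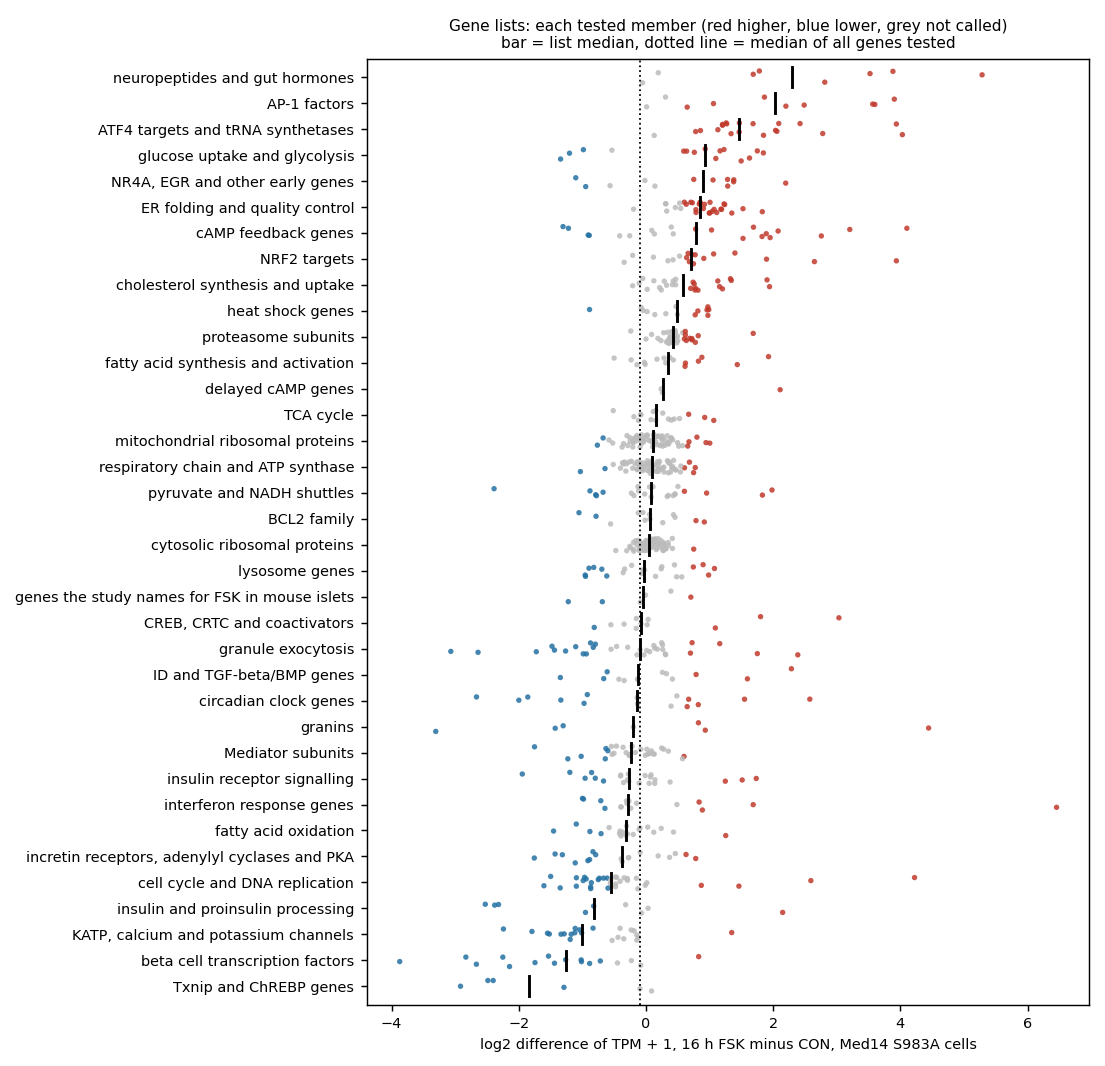
Log2 difference between S983A 16 h FSK and S983A CON for the tested members of each gene list, 1 point per gene, with a bar at the list's median and a dotted line at the median of all genes tested (-0.10). The medians run from 2.30 for neuropeptides and 2.03 for AP-1 factors to -1.26 for beta cell transcription factors and -1.85 for Txnip and ChREBP genes.

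Genes of glucose uptake and glycolysis were mostly higher, and genes of mitochondrial metabolism were mostly not called. Of 15 genes of glucose uptake and glycolysis, 11 were higher and 3 lower (median 0.93). The ubiquitous glucose transporter gene Slc2a1 rose from 52.8 and 55.6 to 179.8 and 189.9 TPM, whereas Slc2a2, the transporter typical of beta cells, fell from 63.6 and 61.7 to 24.4 and 23.8 TPM. Pfkp, Aldoa, Gapdh and Pgk1, successive enzymes of the pathway, rose from 45 and 43.5 to 138 and 139.8, from 1020.5 and 1080.0 to 3757 and 3795, from 1389.9 and 1460.4 to 3347 and 3324 and from 394 and 357 to 1043 and 1078 TPM. In the list of Txnip and genes of the glucose-sensing factor ChREBP, 4 of 6 were lower and none higher (median -1.85). Mlxipl, which encodes ChREBP, fell from 209 and 218 to 38.7 and 40.4 TPM, its target Txnip from 55.9 and 52.9 to 6.32 and 6.35 TPM, Arrdc4 from 94.5 and 88 to 15.6 and 15.3 TPM and the pyruvate kinase gene Pklr from 101 and 104 to 42.1 and 40.9 TPM. Its partner gene Mlx was not called (152 and 155 against 142 and 144 TPM).

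Pyruvate handling and NADH shuttle genes showed 4 higher and 5 lower of 23, beside 12.2% of all genes called higher and 21.1% called lower. Got1 and Gpd1, the cytosolic enzymes of the aspartate and glycerol phosphate shuttles, rose from 77 and 76.5 to 306 and 306 TPM and from 23.2 and 24.3 to 88.3 and 86 TPM. Pdk2, which inhibits pyruvate dehydrogenase, fell from 50.6 and 52.2 to 9.02 and 8.99 TPM, and Pc, pyruvate carboxylase, from 102 and 101 to 55.1 and 54.4 TPM. In the TCA cycle 3 of 17 genes were higher and none lower, among them Mdh2 (704 and 721 to 1129 and 1142 TPM). Of 70 respiratory chain and ATP synthase genes, 4 were higher and 2 lower, with a median of 0.10. With spike-in scaling these counts became 17 and 1, those of the TCA cycle 7 and 0 and those of the shuttle genes 9 and 2.

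In the list of cholesterol synthesis and uptake, 13 of 26 genes were higher and none lower (median 0.59), led by the sterol demethylation enzymes Msmo1 (199.9 and 177 to 722 and 729 TPM, log2 difference 1.94 ± 0.05) and Cyp51 (139.8 and 136 to 519 and 519 TPM). The SREBP regulator Insig1 rose from 137 and 122 to 298 and 300.3 TPM and Fdps, farnesyl diphosphate synthase, from 492 and 488 to 1091 and 1095 TPM. Of 16 genes of fatty acid synthesis and activation 6 were higher and none lower, including Acsl5 (57.3 and 52.6 to 215 and 208 TPM) and Acss2 (42.9 and 41.8 to 114 and 118 TPM). Acly, which exports citrate carbon for synthesis and was among the most abundant, was at 1567 and 1554 and 1115 and 1089 TPM and stayed within the fold limit. Of 20 fatty acid oxidation genes 4 were lower and 1, Cyp4a8, higher, beside 21.1% of all genes called lower and 12.2% called higher. Cpt2 was at 129.7 and 133 TPM in CON and 58.6 and 63.1 TPM with FSK.

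Stress pathways of the secretory cell were raised broadly. Of 20 tested ATF4 targets and tRNA synthetases, the genes of the integrated stress response, 19 were higher and none lower (median 1.47). Atf4 itself rose from 376 and 360.4 to 1515 and 1513 TPM (2.04 ± 0.05), Ddit3, which encodes CHOP, from 55 and 56.8 to 300.2 and 308 TPM, Chac1 from 12.3 and 12.7 to 88.5 and 95.4 TPM and the pseudokinase gene Trib3 from 7.51 and 8.27 to 142 and 146 TPM. Of 31 genes of ER folding and quality control 24 were higher and none lower (median 0.85). The main ER chaperone gene Hspa5 measured 1982 and 1816 TPM in CON and 3500.2 and 3286 TPM with FSK, Hsp90b1 1419 and 1286 and 3517 and 3372 TPM, and Ern1, the stress sensor IRE1, 7.95 and 7.91 and 30.2 and 31.2 TPM.

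Of 18 targets of the antioxidant factor NRF2, 12 were higher and none lower (median 0.70). Slc7a11, the cystine transporter, which belongs to this list and to the ATF4 list, rose from 0.90 and 0.704 to 26 and 27.1 TPM. Hmox1, heme oxygenase, rose from 14.5 and 15 to 97.2 and 98.2 TPM and Gclc, which starts glutathione synthesis, from 11.7 and 10.7 to 31.3 and 30.8 TPM. Among 14 heat shock genes, which include the mitochondrial chaperonin pair Hspd1 and Hspe1, 6 were higher and 1, Hspa12a, lower (median 0.48), with Hspa8 at 608 and 590.3 TPM in CON and 1164 and 1192 TPM with FSK. Proteasome subunits showed 10 higher and none lower of 37 (median 0.43), which became 18 higher after median centring and 29 with spike-in scaling, led by the immunoproteasome gene Psmb8 (8.79 and 8.51 to 28.1 and 32.1 TPM).

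Cell cycle genes were lower on balance, with 16 of 34 lower and 4 higher (median -0.56). Aurkb, a mitotic kinase, fell from 155 and 153 to 50.8 and 49.2 TPM and Cdk1 from 324 and 322 to 191 and 192 TPM. The 4 higher genes included Ccnd1, cyclin D1, at 0.071 and 0.086 TPM in CON and 19.2 and 19 TPM with FSK, and the inhibitor gene Cdkn1a at 6.3 and 5.99 and 43.4 and 40.8 TPM. Clock genes were divided, with 5 higher and 6 lower of 15, beside 12.2% of all genes called higher and 21.1% called lower. The output factors Dbp and Tef and the period gene Per3 fell, for example Dbp from 91 and 95 to 24.2 and 25.7 TPM. Nfil3 and Arntl rose, from 7.05 and 6.76 to 45.4 and 46.8 TPM and from 14.8 and 13.9 to 44.6 and 43 TPM.

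In growth factor signalling, Igf1r rose from 12 and 12.6 to 43.2 and 43.4 TPM and Irs2, a docking protein of the insulin receptor and a CREB target in beta cells, from 30.1 and 30.2 to 73 and 72.8 TPM, while Igf2 fell from 391 and 411 to 179.6 and 169 TPM. That list of 23 held 3 higher and 6 lower genes, beside 12.2% of all genes called higher and 21.1% called lower. Other lists had few calls or calls both ways: 2 higher and 2 lower of 13 BCL2 family genes, 3 and 3 of 13 ID and TGF-beta/BMP genes, 4 and 4 of 16 interferon genes, and 4 and 6 of 22 lysosome genes. With spike-in scaling these became 4 and 1, 4 and 1, 5 and 2, and 7 and 4. Ribosomal protein genes were near the centre of the distribution, with 1 higher and none lower of 74 cytosolic ones (median 0.05) and 5 higher and 2 lower of 68 mitochondrial ones (median 0.10), or 5 and 0 and 13 and 0 with spike-in scaling.

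Within Mediator, 6 of 30 subunit genes were lower and 1, Cdk8, higher, beside 21.1% of all genes called lower, and with spike-in scaling 3 were lower and 3 higher. The alternative kinase subunit genes moved apart: Cdk19 fell from 32.9 and 31.5 to 8.79 and 8.92 TPM and Cdk8 went from 62.2 and 59 to 90.4 and 94 TPM (log2 difference 0.60 ± 0.05). Med25 fell from 129.6 and 142 to 56.4 and 58.3 TPM and Med23 from 63.2 and 60.0 to 29.6 and 30.2 TPM. Med10 was not called (141 and 144 against 151 and 137 TPM). The median of the list was -0.23 and turned positive with spike-in scaling.

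The study picked 11 genes for FSK in mouse islets, and described such genes as induced at 16 h in beta cells in dependence on Med14 S983. Of these, 6 were tested here. In S983A cells 1 was higher and 2 lower, beside 12.2% of all genes called higher and 21.1% called lower. In WT cells 3 were higher and 2 lower, and 1 gene had a called lower change in S983A cells. The 11 genes were picked in other cells, but within the same study. Pdia6, an ER disulfide isomerase, rose from 650.5 and 583 to 993 and 1017 TPM, and Bcar1, an adaptor of focal adhesions, fell from 38 and 40.3 to 16.8 and 15.6 TPM.

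The FSK response was next set against that of WT cells, to ask where the response of the mutant cells differs. The test was the difference between the log2 changes of the genotypes, in which no library is shared. It called 1091 genes with a higher change in S983A cells, 10.6% of those tested, and 658 with a lower one, 6.4%. In WT cells FSK raised 1062 genes (10.3%) and lowered 2478 (24.1%). Called in the same direction in both genotypes were 686 higher genes, 54.7% of the S983A list and 64.6% of the WT list, and 1585 lower genes, 73.1 and 64.0%. Another 35 genes were called in opposite directions, 24 of them higher in S983A cells. The split of called differences depended on scaling: with each library centred on its median it was 802 higher and 893 lower, and with spike-in scaling 707 and 1059.

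Cholesterol genes rose less in the mutant cells. The median log2 change was 0.59 in S983A and 1.57 in WT cells, and 19 of the 26 genes had a called lower change in S983A, none a higher one. Insig1 rose from 67.7 and 67.9 to 452 and 456 TPM in WT cells against 137 and 122 to 298 and 300.3 TPM in S983A cells, a difference of -1.53 ± 0.06 on the log2 scale (adjusted p = 4.29e-16, limma). Fdps rose from 296 and 303 to 1841 and 1874 TPM in WT cells (difference -1.47 ± 0.04). In both genes the S983A cells started higher and ended lower than WT cells.

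Insulin genes and beta cell factors also had lower changes in the mutant cells. In the insulin processing list 7 of 9 genes had a called lower change and 1 a higher one, and the medians were -0.82 in S983A and 0.20 in WT cells. Ins1 rose from 34501 and 33716 to 59777 and 56967 TPM in WT cells (difference between genotypes -0.74 ± 0.08, adjusted p = 1.36e-08, limma), and Iapp from 7007 and 6973 to 14797 and 14762 TPM (difference -1.15 ± 0.06). Ins2 fell in both, in WT cells from 2885 and 2991 to 1154 and 1080.4 TPM, a level far below that of S983A cells already in CON. The joint share of Ins1 and Ins2 went from 3.74 and 3.67% to 6.09 and 5.80% of all transcripts in WT cells and thus moved opposite to the mutant cells. Of the 17 beta cell factors 10 had a called lower change in S983A cells and none a higher one, among them Nkx2-2, which fell from 93 and 80.7 to 42.9 and 43.4 TPM in WT cells (difference -1.16 ± 0.08). Pcsk1 went from 103 and 96.8 to 50.7 and 53.5 TPM in WT cells, a smaller fall than in the mutant (difference -1.60 ± 0.08).

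Heat shock and NRF2 genes showed the reverse. Of 14 heat shock genes 7 had a called higher change in S983A cells and none a lower one (medians 0.48 and 0.10), and of 18 NRF2 targets 5 and none (medians 0.70 and 0.17). Slc7a11 is 1 of these 5, with a difference of 0.65 ± 0.12, which edgeR called in the other direction (-1.31, adjusted p = 2.02e-05). Hspd1 measured 399 and 418 TPM and 403 and 411 TPM in WT cells against 383 and 319 and 679.7 and 680.0 TPM in S983A cells (difference 0.96 ± 0.08). Gclc was within the fold limit in WT cells (13.5 and 12.8 and 13.8 and 11.9 TPM; difference 1.43 ± 0.10). AP-1 and ATF4 lists, by contrast, had nearly equal medians in S983A and WT cells (2.03 and 2.08, 1.47 and 1.37), although 3 higher and 2 lower differences were called in each.

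Some large differences came from genes hardly expressed in 1 genotype. Fxyd5, at 37 and 35.2 TPM in treated S983A cells, reached 0.429 and 0.591 TPM in treated WT cells (difference 4.58 ± 0.13, adjusted p = 1.19e-18, limma). Rph3a, which fell from 19.7 and 18.7 TPM in the mutant, was at 0.468 and 0.344 TPM in WT CON and 0.086 and 0.133 TPM in treated WT cells. Pgm5 was at 0.377 and 0.223 TPM in S983A CON and fell from 83.3 and 87.5 to 6.25 and 5.78 TPM in WT cells. The delayed cAMP genes Plat, Kdr and Osbpl6 had a called lower change in S983A cells in all 3 cases. The study had itself measured these genes in WT and S983A INS-1 cells. It reported induction of Kdr and Osbpl6 by Ex-4 as blocked in the mutant. It also followed Plat, Kdr and Osbpl6 over 8 h of FSK in both genotypes, so the list is not an independent choice. Plat, tissue plasminogen activator, rose from 0.058 and 0.015 to 3.6 and 3.35 TPM in S983A and from 0.955 and 1.08 to 63.4 and 68.1 TPM in WT cells. Its difference of -2.94 rests on the log2(TPM + 1) scale and changed sign with a pseudocount of 0.1 TPM and in the count models, whereas its TPM after FSK was lower in S983A than in WT cells. The VEGF receptor gene Kdr went from 0.081 and 0.043 to 0.262 and 0.242 TPM in S983A cells, a range where log2(TPM + 1) compresses changes. In treated WT cells Kdr reached 4.52 and 4.84 TPM.

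Genes called in opposite directions included Myc, which rose in S983A cells as given above and fell from 69.4 and 70.5 to 36.5 and 37.8 TPM in WT cells (difference 2.27 ± 0.07). Car2, a carbonic anhydrase, rose from 20.1 and 19.5 to 59.9 and 63 TPM in S983A cells and fell from 24.2 and 21.9 to 10.3 and 11.1 TPM in WT cells (difference 2.63 ± 0.09). Gpd1 fell from 129.6 and 123 to 80.2 and 77.7 TPM in WT cells. The ligand gene Tgfb1 fell from 4.58 and 4.66 to 1.52 and 1.46 TPM in S983A cells and rose from 2.82 and 2.74 to 9.15 and 8.94 TPM in WT cells, and S100a3, a calcium-binding protein gene, fell from 13.2 and 13.2 to 8.36 and 7.23 TPM against a rise from 1.3 and 0.651 to 8.96 and 9.84 TPM.

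**Figure D4:**
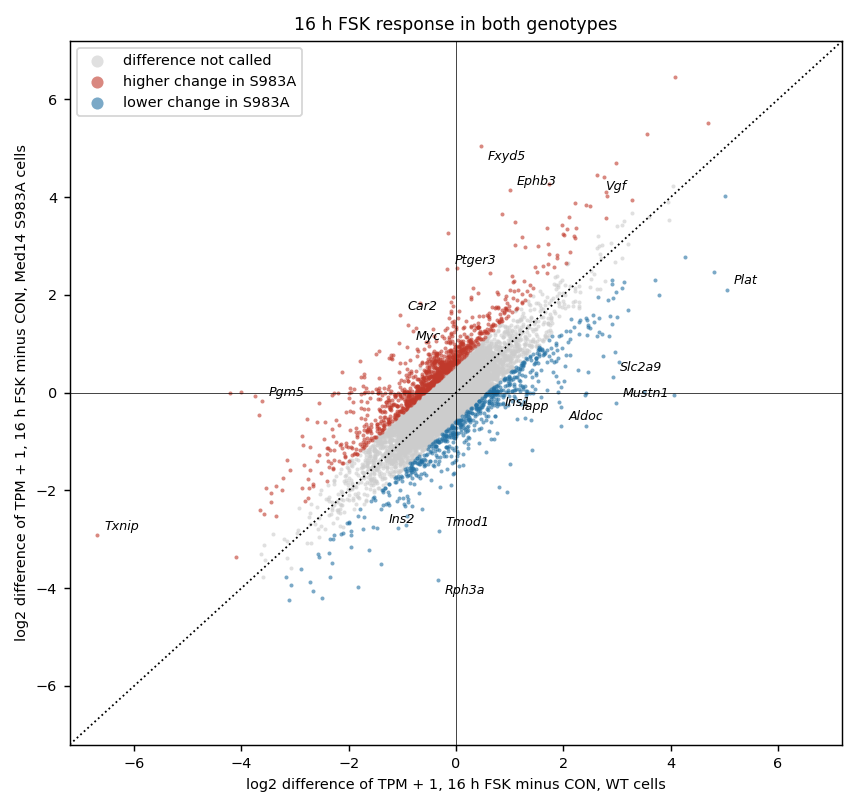
Log2 change with 16 h FSK in S983A cells (vertical axis) against that in WT cells (horizontal axis), 1 point per tested gene, coloured where the difference between genotypes was called. Fxyd5, Ephb3 and Txnip lie above the dotted line of equal change, and Plat, Mustn1 and Ins1 below it.

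Between 8 and 16 h of FSK the mutant cells changed further. At 16 h 2212 genes were higher than at 8 h, 21.5% of those tested, and 658 were lower, 6.4%. The split moved strongly with scaling, to 1410 and 1187 after median centring and to 4171 and 250 with spike-in scaling, so a direction is given below only for genes far from the median difference of 0.15. The 8 and 16 h groups share no library, but both were compared with the same CON libraries.

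The early genes continued to decline, with 5 of 10 AP-1 genes and 7 of 12 other early genes lower at 16 h than at 8 h and 0 and 1 higher. Crem went from 209 and 208 TPM at 8 h to 95 and 97.9 TPM at 16 h (-1.10 ± 0.08). Hspa5 had a peak of 8728 and 8666 TPM at 8 h and was lower at 16 h (log2 difference -1.36 ± 0.05, adjusted p = 1.95e-18, limma). Cyclin D1 followed, with 54.3 and 52 TPM for Ccnd1 at 8 h. Other genes went on rising or falling. Ifi27l2b was at 4.94 and 3.51 TPM at 1 h and 65.2 and 66.1 TPM at 8 h and gained 2.87 ± 0.14 on the log2 scale by 16 h, and Fxyd5 was at 2.95 and 2.74 TPM at 8 h. Enpp2 still had 93.6 and 95.3 TPM at 8 h and then lost most of its transcript (-3.29 ± 0.05). Tff3, a secreted trefoil peptide, went from 1575 and 1586 TPM in CON to 865 and 858 TPM at 8 h and 179 and 173 TPM at 16 h.

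Some genes dipped at 8 h and rose again by 16 h, to near or above their level in CON. Rab26, a GTPase of vesicle traffic, was at 37 and 36.1 TPM in CON, 7.31 and 7.14 TPM at 8 h and 67.8 and 69.8 TPM at 16 h (3.08 ± 0.07). Tspan17 had 25.2 and 26.2, 2.84 and 2.83 and 24.9 and 23.4 TPM. Others peaked at 8 h, such as Actn2, an actin cross-linker (0.953 and 0.958 TPM in CON, 20.6 and 18 at 8 h, 1.75 and 1.84 at 16 h), and the calcium-dependent kinase gene Camk4 (7.2 and 6.62, 66.9 and 69.9 and 13.2 and 13.7 TPM). Of the 1255 genes higher at 16 h, 735 were called higher at 8 h and 158 at 1 h. For the 2168 lower genes these counts were 1800 and 199, all against the same CON libraries. Mitochondrial ribosomal protein genes were higher at 16 h than at 8 h in 20 of 68 cases and lower in none, beside 21.5% of all genes called higher.

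**Figure D5:**
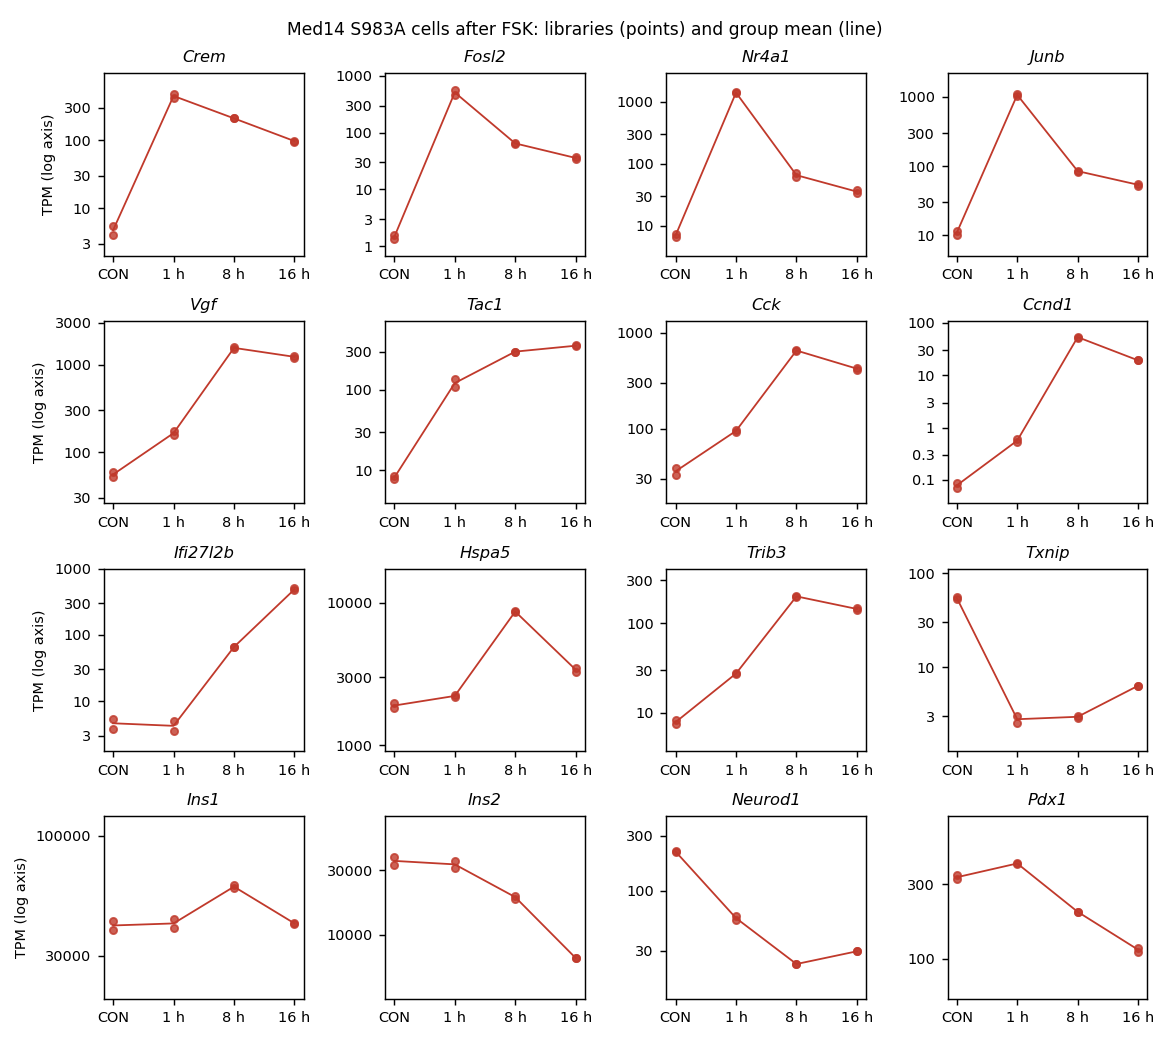
TPM (log axis, own range for each gene) of 16 genes in S983A cells in CON and after 1, 8 and 16 h of FSK, drawn at even spacing, with 1 point per library and a line through the group means. Crem, Fosl2, Nr4a1 and Junb are highest at 1 h and Hspa5 and Ccnd1 at 8 h, while Ifi27l2b still rises and Ins2 still falls between 8 and 16 h.

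The last comparison was between agents at 16 h in the mutant cells. FSK acts on adenylyl cyclase and was given at 10 µM, Ex-4 acts through the GLP-1 receptor and was given at 10 nM, so the doses are not matched. With FSK 592 genes were higher than with Ex-4, 5.76% of those tested, and 1085 were lower, 10.6%. With spike-in scaling the split reversed to 2054 higher and 528 lower. Both groups were read against the same CON libraries, and the values are therefore given side by side.

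Beta cell genes were lower with FSK than with Ex-4. Of 17 beta cell factors 12 were lower with FSK than with Ex-4 and 1 higher, and of 23 channel genes 13 were lower and 1 higher. Neurod1 measured 124 and 122 TPM with Ex-4 and 29.6 and 29.9 TPM with FSK (-2.01 ± 0.05, adjusted p = 9.96e-21, limma), and Nkx2-2 97.2 and 102 and 22.9 and 22.2 TPM (-2.10 ± 0.05). With Ex-4, Nkx2-2 was thus close to the 99.5 and 107 TPM of CON. Scgn kept 1036 and 985 TPM with Ex-4 (-3.36 ± 0.05) and Scg2 1182 and 1165 TPM (-3.10 ± 0.04). Ins2 was at 20103 and 20500.4 TPM with Ex-4 (-1.59 ± 0.06) and Wif1 at 257 and 239 TPM.

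Some of the genes that FSK raised were far lower with Ex-4. Fst was at 2.7 and 2.18 TPM with Ex-4 (4.78 ± 0.09), Ccnd1 at 0.309 and 0.207 TPM, Hmox1 at 17.6 and 23.4 TPM and Smim3, a small membrane protein gene, at 2.08 and 1.98 TPM against 26.6 and 25.4 TPM with FSK (3.15 ± 0.09). The metallothionein gene Mt2A was lower with Ex-4 (0.542 and 1.37 TPM) than in CON (6.98 and 7.16 TPM) and higher with FSK (25.5 and 23.7 TPM). Vgf reached 128 and 155 TPM with Ex-4 (3.11 ± 0.07). The cholesterol genes were nearly level between the agents, with 2 of 26 higher with FSK and none lower, for example Insig1 at 302 and 287 TPM with Ex-4, and so were Chac1 (94.6 and 90.8 TPM, difference -0.01 ± 0.09) and Txnip (5.93 and 4.49 TPM, 0.25 ± 0.08), neither of which was called.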

How the data were processed

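RNA of INS-1 cells was sequenced in 28 libraries of 14 groups with 2 libraries each. Per the submitters' notes and the study's methods, the authors added ERCC spike-ins, built strand-specific libraries, aligned paired reads to rn6 with STAR 2.5.3a and wrote exon TPM per RefSeq transcript with HOMER 4.11.1. Their own differential tests (DESeq2 1.24.0, spike-in size factors) were not used. The deposited TPM table holds 19223 rows, of which 92 are spike-ins, and the deposited raw counts cover the spike-ins only. The spike-in counts gave the reads that 1 TPM stands for in each library. Of 175533 gene values under 1000 reads, 100% then lay close to a multiple of 0.5 fragments, beside 32.9% by chance. The tolerance was 0.05 plus the rounding error of the TPM value. These recovered reads gave the depths and, rounded, the count models.

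Genes averaging 1 TPM or more over all libraries were put on the log2(TPM + 1) scale and fitted with limma 3.58.1 (R 4.3.3; trended variance, Benjamini-Hochberg adjustment) over all 28 libraries, with 14 group means and 14 residual degrees of freedom. The members and the 36 gene lists were chosen with earlier results of these data known. Named genes are Med14, the 15 largest rises and 15 largest falls (called, mean of at least 10 TPM, groups not overlapping), the 5 largest changes and 3 highest levels in each list, the 5 largest each way in the other contrasts and among genes called in opposite directions, and up to 5 genes on or off. Some members that make up a count of 5 or fewer were named after their values were seen. A few genes that these rules select are not reported here. Alternatives were a pseudocount of 0.1 TPM, a minimum of 5 TPM or none, no fold minimum, median centring, spike-in scaling, only the libraries compared, edgeR 4.0.16, DESeq2 1.42.0, a replicate block, and leaving out each library. The steps were tested on simulated data.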

Additional observations from a re-analysis of the deposited data

Results flagged for a closer look

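The response to 16 h of FSK differed between the genotypes, by the test of the difference itself, for 1091 genes with a higher log2 change in S983A than in WT cells and 658 with a lower one. These counts and the values below are on the log2(TPM + 1) scale and come from the same fit as the report.

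Among the named genes, Txnip fell by less in S983A cells (55.9 and 52.9 to 6.32 and 6.35 TPM) than in WT cells (329 and 312 to 1.92 and 2.34 TPM; difference 3.77 ± 0.12). Pgm5, which encodes a phosphoglucomutase relative of the cytoskeleton, was at 0.377 and 0.223 TPM in S983A CON and 0.195 and 0.112 TPM with FSK, and went from 83.3 and 87.5 to 6.25 and 5.78 TPM in WT cells (3.45 ± 0.12). Ephb3 rose more in S983A cells (1.67 and 2.18 to 52.3 and 48.9 TPM) than in WT cells (1.17 and 1.08 to 3.32 and 3.18 TPM, difference 3.14 ± 0.12). The prostaglandin receptor gene Ptger3 rose in S983A cells (4.36 and 5.18 to 31.9 and 32.6 TPM) and did not rise in WT cells (13.7 and 13.8 to 11.4 and 13 TPM, difference 2.69 ± 0.12). The called opposite changes with a higher value in S983A cells were led by Car2 (2.63 ± 0.09), Gpd1 (2.5 ± 0.08), the kinase gene Matk (2.44 ± 0.16), Misp3 (2.30 ± 0.08) and Myc (2.27 ± 0.07).

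On the other side, Mustn1, a gene of musculoskeletal tissue, stayed within the fold limit in S983A cells (8.05 and 8.75 TPM in CON, 7.04 and 7.19 TPM with FSK) and rose in WT cells (33.1 and 35.5 to 287 and 267 TPM; difference -3.19 ± 0.09). The urate transporter gene Slc2a9 did likewise (20.1 and 20.3 TPM in CON and 24.5 and 26.9 TPM with FSK, against 1.48 and 1.39 to 17.1 and 17.9 TPM; -2.60 ± 0.09). Tmod1, which caps actin filaments, fell in S983A cells (26.4 and 24.9 to 2.74 and 2.73 TPM) with a smaller change in WT cells (15 and 14.2 to 11.1 and 11.8 TPM; -2.51 ± 0.11). Plat had a difference of -2.94 ± 0.13, with the change of sign under other settings described in the report. The opposite changes with a lower value in S983A cells were led by S100a3 (-3.11 ± 0.18), LOC691995 (-2.99 ± 0.19), Pdzrn3 (-2.72 ± 0.09), Aldoc (-2.64 ± 0.12) and Tgfb1 (-2.58 ± 0.12). An effect of the mutation and one of the cell line that carries it cannot be told apart in any of these genes.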

How the results depend on the processing

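With 2 libraries per group, 1 library left out in turn changed the counts within narrow ranges: 1197 to 1334 higher and 2141 to 2232 lower genes for FSK against CON, 1016 to 1197 and 629 to 716 for the difference between genotypes, 2172 to 2232 and 599 to 725 for 16 against 8 h, and 578 to 619 and 1043 to 1158 for FSK against Ex-4. The lone remaining library of a group was then assumed to vary like the other groups. The other settings that moved a count by over 1.5 times were mostly scalings. With spike-in scaling the counts were 2101 higher and 1419 lower for FSK against CON, 707 and 1059 for the genotypes, 4171 and 250 for 16 against 8 h, and 2054 and 528 for FSK against Ex-4. Count models with spike-in scaling gave, with edgeR and DESeq2, 2267 and 2259 higher genes for FSK against CON, 1187 and 1074 lower for the genotypes, 4631 and 4592 higher and 301 and 306 lower for 16 against 8 h, and 2298 and 2258 higher and 670 and 672 lower for FSK against Ex-4. With their own scaling, edgeR and DESeq2 gave 1036 and 990 lower genes for the genotypes and 1326 and 1315 lower for 16 against 8 h. Median centring gave 1410 higher and 1187 lower for 16 against 8 h. Without a fold minimum 3302 genes were higher and 4804 lower for FSK against CON. Why the scalings differ was not tested. For the named genes in FSK against CON, 4282 log2 values kept their call over the settings, and 91 passed and 66 missed the threshold only under an alternative. No value changed sign where the main fit or the alternative called it. Changes of sign in genes called in neither are counted among the 4282.

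Replicate numbers did not pair the samples: deviations of same-numbered S983A CON and 16 h FSK libraries had r = -0.05, and over 91 pairs of groups r ran from -0.28 to 0.28. A replicate block gave 1255 higher and 2168 lower genes for FSK against CON, 1092 and 659 for the genotypes, and moved no count by over 1.5 times. Depth limits genes near 1 TPM, where log2(TPM + 1) compresses changes. Among named genes with a called difference between genotypes, those of Fst, Grb10, Mt2A, Plat and Slc7a11 changed sign in at least 1 setting. With edgeR, Plat moved to 0.41 and Slc7a11 to a called -1.31. Per3 was not called in the main fit (-0.37) but was called in the other direction by edgeR (0.82). Many other named genes whose difference was not called also changed sign in some settings.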
